A study of Mus musculus with 6 samples.

Results

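The Bcl2 family decides whether the outer mitochondrial membrane stays closed, and with it whether a cell survives or starts apoptosis. The 10 family genes described here were chosen by name and are 10 of 18193 genes measured. They are 4 pro-survival genes (Bcl2, Bcl2l1, Bcl2l2 and Mcl1) and 6 pro-death genes. The pro-death genes are the BH3-only members Bcl2l11, Bad, Bid and Bmf, and the pore-forming effectors Bak1 and Bok. All 35 probe sets annotated to exactly 1 of these symbols were taken, of 45037 tested, and the brightest by its 6-array mean stands for its gene.

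Pro-survival proteins hold the effectors and the BH3-only proteins in check by binding them in a groove. BH3-only proteins are made or activated under stress, such as loss of a cytokine signal, and fill that groove or act on the effectors, which then open the membrane and release cytochrome c. In mouse blood stem cells Mcl1 is known to be required for survival, and forced Bcl2 protects stem cells from death. Much of this control acts on proteins, which mRNA levels do not show.

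The cells were LKS+ cells of mice, sorted as negative for mature-lineage markers, high for cKit and positive for Sca-1, a gate rich in blood stem cells and multipotent progenitors. There were 3 arrays from Apcmin mice and 3 from wild-type (WT) mice. The Min allele, which truncates the Apc protein of the beta-catenin destruction complex, is present in every cell of Apcmin mice and not only in blood, so their marrow surroundings carry it too. The labels used here name no further allele, treatment, strain or age, and p-values measure the spread between these arrays, since no label names the animals. The series title offers these mice as a model for MPD/MDS (myeloproliferative and myelodysplastic disease), and the comparison asks which family transcripts differ between the genotypes. RNA was amplified linearly and hybridized to Affymetrix mouse genome arrays. Values are log2 of the authors' normalized intensity.

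From 33.3% to 34.5% of the probe sets of an array reached a log2 intensity of 6, and 0 of 45037 passed between the genotypes (limma with Benjamini-Hochberg adjustment, threshold 0.05), with 1714 at an unadjusted p under 0.05. Of 10 measured stem and progenitor markers all had a mean of at least 6, and 9 were on average higher in Apcmin, at a median difference of 0.06. Kit was at 9.87 ± 0.18 in Apcmin and 9.79 ± 0.18 in WT (SD, n = 3 each). Of 20 markers of mature blood cells, 17 had a lower mean in Apcmin and 7 a mean of at least 6. Of the 13 with a mean under 6, 11 were lower in Apcmin, beside 6590 of the 9535 such genes on the whole array, and 10374 of all 18193 genes were lower. The summed intensity of the 20 markers ran from 7624 to 7857 on Apcmin arrays and from 7081 to 9533 on WT arrays, and their mean log2 level from 4.74 to 4.85 on Apcmin arrays and from 4.86 to 5.27 on WT arrays. S100a9, at a mean of 12.0, and S100a8, at 11.36, weighed most on that summed intensity. Of 6 endothelial and stromal markers, 5 had a lower mean in Apcmin and 1 a mean of at least 6, with summed intensities from 147.1 to 158.7 on Apcmin arrays and from 159.2 to 246.6 on WT arrays. These sums mostly follow Pecam1, the 1 bright marker. It was at 6.68, 6.86 and 6.60 in Apcmin, against 7.56, 6.67 and 6.79 in WT, with overlapping groups. The part of such cells in the differences below was not tested. In sorted cells measured in bulk, fewer cells of a kind and less RNA per cell cannot be told apart. The Y-linked gene Eif2s3y was at 9.39 on Apcmin replicate 2 and 9.20 on WT replicate 3 and from 1.16 to 1.58 on the other 4 arrays, and Kdm5d and Uty were high on the same 2 arrays, so that each genotype held 1 array of this kind. With the mean of these 3 genes as a covariate in limma, 0 of the 10 family genes passed.

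For none of the 10 genes did the difference between Apcmin and WT pass the test used. In limma 0 of the 10 genes passed, against 0% of all genes, the smallest adjusted p among them was 0.954, and 0 had an unadjusted p under 0.05, against 3.11% of all genes. All 4 pro-survival genes had a lower mean in Apcmin, by 0.02 to 0.15 on the log2 scale, although Bcl2 and Mcl1 were higher when all probe sets of the gene were averaged, and Mcl1 with array weights. In that average Bcl2l1 differed by -0.38 and Bcl2l2 by -0.33. Of the 6 pro-death genes, 3 had a mean above and 3 a mean below that of WT. The median difference was -0.06 over the 10 genes, -0.07 over the pro-survival and -0.01 over the pro-death genes, beside -0.04 over all genes. Over all genes with a mean of at least 6, as 8 of the 10 and all 4 pro-survival genes had, it was 0.02. Of those 8658 genes, 3784 were lower in Apcmin. For 0 of the 10 genes did the Apcmin values all lie on one side of the WT values, as they did for 7.73% of all genes.

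Mcl1 encodes a short-lived pro-survival protein that restrains Bak1 and Bcl2l11. Its brightest probe set was at 10.82, 10.63 and 10.79 in Apcmin, against 10.73, 10.68 and 10.89 in WT. The 2 sets of values interleaved, with WT replicate 3 highest and Apcmin replicate 2 lowest. The difference was -0.02 ± 0.14 (standard error, limma, adjusted p = 0.990), and its 95% confidence interval allows levels in Apcmin between 0.779 and 1.24 times those in WT. All 6 Mcl1 probe sets had a mean of at least 6, with 3 differences below and 3 above 0. One of them, 1456243_x_at, was at 10.28 ± 0.02 in Apcmin and 10.30 ± 0.02 in WT, the narrowest spread among the Mcl1 probe sets. Another, 1416881_at, was at 8.44, 8.52 and 8.50 in Apcmin, against 7.69, 8.52 and 8.43 in WT. WT replicate 1 lay below the other 5 arrays there, and without it the difference of 0.27 was 0.01.

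Bcl2, the founding pro-survival member, was at 8.75, 8.79 and 8.91 in Apcmin, against 8.90, 8.80 and 8.97 in WT on its brightest probe set. The groups overlapped, although the lowest values of the 6 were from Apcmin. The difference was -0.07 (standard error 0.14 in limma, adjusted p = 0.964), with a 95% confidence interval from -0.40 to 0.25.

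The other Bcl2 probe sets did not give one direction. Probe set 1437122_at was at 7.84, 7.93 and 8.05 in Apcmin, against 8.11, 8.30 and 8.28 in WT, a difference of -0.29. Probe set 1422938_at was at 7.38, 7.75 and 7.70 in Apcmin, against 7.94, 7.94 and 7.77 in WT, a difference of -0.27. On both, every Apcmin array lay below every WT array. Probe set 1440770_at ran the other way, at 6.50, 6.44 and 6.15 in Apcmin, against 5.88, 5.48 and 6.13 in WT, with every Apcmin array above every WT array. Its difference was 0.53 (unadjusted p = 0.0402 and adjusted p = 0.954 in limma). The fifth, 1443837_x_at, overlapped between the groups and differed by 0.34. Which transcripts each probe set reads was not analysed here, and the mean over the 5 probe sets differed by 0.05.

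Bcl2l1 encodes Bcl-x, whose long form is pro-survival and whose short form is pro-death, both from 1 gene by alternative splicing. Its brightest probe set, 1420888_at, was at 5.72, 6.20 and 5.94 in Apcmin, against 6.25, 6.25 and 5.81 in WT. WT replicate 3 lay below 2 of the Apcmin arrays, and the difference was -0.15 (standard error 0.20 in limma, adjusted p = 0.956). All 4 Bcl2l1 probe sets had a lower mean in Apcmin. Probe set 1420887_a_at had the smallest p of the 35. It was at 4.38, 4.33 and 4.0 in Apcmin, against 5.11, 4.93 and 4.75 in WT. Every Apcmin array lay below every WT array, by at least the gap between 4.38 and 4.75. The difference of -0.69 had a standard error of 0.17 and a 95% confidence interval from -1.11 to -0.28, and did not pass over all probe sets (unadjusted p = 0.00559 and adjusted p = 0.954 in limma). With any 1 array left out it ranged from -0.78 to -0.58. With a pseudocount of 16 it was -0.41, and with a mean-variance trend in limma its unadjusted p was 0.0304. Probe set 1426191_a_at was at 4.99, 5.65 and 4.76 in Apcmin, against 6.08, 5.84 and 5.33 in WT, a difference of -0.61 with overlapping groups. These 2 probe sets had means under 6, in the range where the median difference of all probe sets was -0.08.

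**Figure D1:**
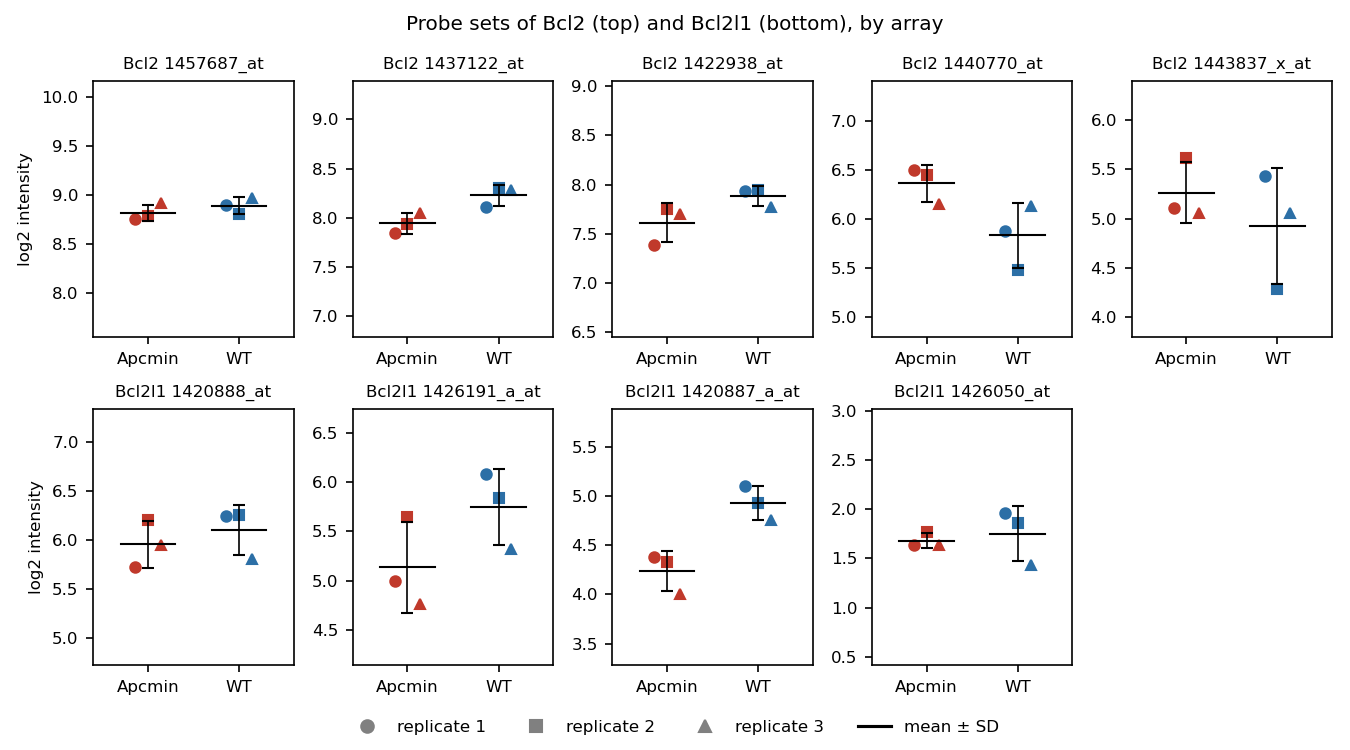
Log2 intensity (vertical axis, with the same span in each panel) of the 5 Bcl2 probe sets and the 4 Bcl2l1 probe sets on the 3 Apcmin and 3 WT arrays. Points are arrays, marked by replicate number, and bars show the mean ± SD. Apcmin lies below WT on 1437122_at, 1422938_at and 1420887_a_at and above WT on 1440770_at, and none of these differences passed over all probe sets.

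Bcl2l2 encodes Bcl-w, a further pro-survival protein. It was at 8.46, 8.35 and 7.79 in Apcmin, against 8.24, 8.23 and 8.34 in WT. Apcmin replicate 3 lay below the other 5 arrays, and the other Apcmin arrays lay above all of WT. The difference was -0.07 (standard error 0.20 in limma, adjusted p = 0.977), and without Apcmin replicate 3 it was 0.14. The other 3 Bcl2l2 probe sets, each with a mean under 6, differed by -0.53, -0.30 and -0.41, all with overlapping groups.

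Across the 4 pro-survival genes, 14 of 19 probe sets had a lower mean in Apcmin, with a median difference of -0.07, beside 25053 of 45037 probe sets and a median of -0.03 over the whole array. The groups did not overlap on 3 probe sets lower in Apcmin, against 4.78% of all probe sets, and on 1 higher in Apcmin, against 3.1%. Those 4 are the Bcl2 and Bcl2l1 probe sets given above. Of the 19 pro-survival probe sets, which read only 4 genes, 12 had a mean of at least 6. On the whole array 6542 of 15155 such probe sets were lower in Apcmin, and in the family 10 of 18. Under a mean of 6, 18511 of 29882 probe sets on the whole array were lower, and 10 of 17 in the family. All 4 Bcl2l1 and all 4 Bcl2l2 probe sets were lower, and only 1 of each gene had a mean of at least 6. Across the 6 pro-death genes, 6 of 16 probe sets had a lower mean in Apcmin, with a median difference of 0.05, and the groups overlapped on all of them.

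Among the BH3-only genes, Bcl2l11 encodes Bim, an activator of the effectors whose transcription is raised in mouse and human cells by Foxo3 when cytokine signals are lost. All 10 family genes had a window around a start site, 250 bases before and 50 after it, in the RefSeq table of GRCm38.p6, 16 windows in all because some genes have several starts. Only a Bcl2l11 window held GTAAACA, a core motif of Foxo factors, on either strand, and it is shown because of that known control. The motif occurs in 3.65% of 32851 such windows. The 250 bases before the start lie at chr2:128125788-128126037 on the plus strand, with the motif in capitals.
Bcl2l11: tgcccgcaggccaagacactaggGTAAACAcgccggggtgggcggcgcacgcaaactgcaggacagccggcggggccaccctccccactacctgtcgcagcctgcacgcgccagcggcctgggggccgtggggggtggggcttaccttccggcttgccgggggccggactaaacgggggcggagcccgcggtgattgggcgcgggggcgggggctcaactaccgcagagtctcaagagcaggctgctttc
The motif begins 227 bases before the start site. CTTTGAT and CTTTGAA, core motifs of the Tcf/Lef partners of beta-catenin, were also searched on both strands, and 0 of the 16 windows held either, beside 3.73% and 5.14% of all windows. A match or its absence in such a window describes letters and not binding.

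Bcl2l11 itself was at 8.64, 8.74 and 8.49 in Apcmin, against 8.64, 8.39 and 8.61 in WT. The groups overlapped, and the difference was 0.08 (standard error 0.15 in limma, adjusted p = 0.966). Foxo3 was at 10.85, 10.67 and 10.59 in Apcmin, against 10.76, 10.54 and 10.80 in WT, a difference of 0.005 (adjusted p = 0.999). All 5 Bcl2l11 probe sets had a higher mean in Apcmin, by 0.06 to 0.55. The widest of these, 1456005_a_at, was at 7.78, 7.59 and 7.60 in Apcmin, against 5.96, 7.48 and 7.88 in WT. It rests on WT replicate 1, without which the difference was -0.02. That array was also the lowest of the 6 on 1435449_at and 1426334_a_at, both with a mean under 6, and without WT replicate 2 the difference of the brightest probe set was -0.002.

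Bad encodes a BH3-only protein that binds Bcl2 and Bcl-x and is kept inactive by survival kinases. It was at 7.59, 7.88 and 7.89 in Apcmin, against 7.86, 7.84 and 7.81 in WT. Apcmin replicate 1 lay below the rest and the other Apcmin arrays above, and the difference was -0.05 (standard error 0.15 in limma, adjusted p = 0.977). The second Bad probe set, 1416583_at, showed the same array low, at 7.10, 7.64 and 7.63 in Apcmin, against 7.79, 7.62 and 7.64 in WT. Without Apcmin replicate 1 the difference of the brightest Bad probe set was 0.05.

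Bid encodes the protein that caspase-8 cleaves to carry a death receptor signal to mitochondria. Its brightest probe set was at 8.63, 8.17 and 8.35 in Apcmin, against 8.03, 8.58 and 8.45 in WT, so that the highest and the lowest array came from opposite groups. The difference was 0.03 (standard error 0.21 in limma, adjusted p = 0.992). Probe set 1448560_at differed by -0.30 and 1447873_x_at by 0.39, both with overlapping groups.

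Bmf encodes a BH3-only protein held at the cytoskeleton until cells are stressed. It was at 5.38, 5.64 and 5.86 in Apcmin, against 5.88, 6.42 and 5.36 in WT. WT replicate 2 stood highest and WT replicate 3 lowest, and the difference of -0.26 (standard error 0.29, limma, adjusted p = 0.954) was 0.01 without WT replicate 2.

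The effector Bak1 builds the pore in the outer mitochondrial membrane. It was at 8.65, 8.65 and 8.30 in Apcmin, against 8.47, 8.46 and 8.43 in WT. The WT arrays lay within the range of the Apcmin arrays, and the difference was 0.08 (standard error 0.15 in limma, adjusted p = 0.966). The other Bak1 probe set differed by 0.11.

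Bok, an effector-like relative of Bak1, had 1 probe set. It was at 5.37, 4.47 and 4.46 in Apcmin, against 4.86, 5.37 and 5.48 in WT. A pair of Apcmin arrays lay below all WT arrays, and Apcmin replicate 1 lay among them. The difference of -0.47 was the widest of the 10 genes, with a standard error of 0.30 and a 95% confidence interval from -1.18 to 0.25 (limma, adjusted p = 0.954). Without Apcmin replicate 1 it was -0.77.

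**Figure D2:**
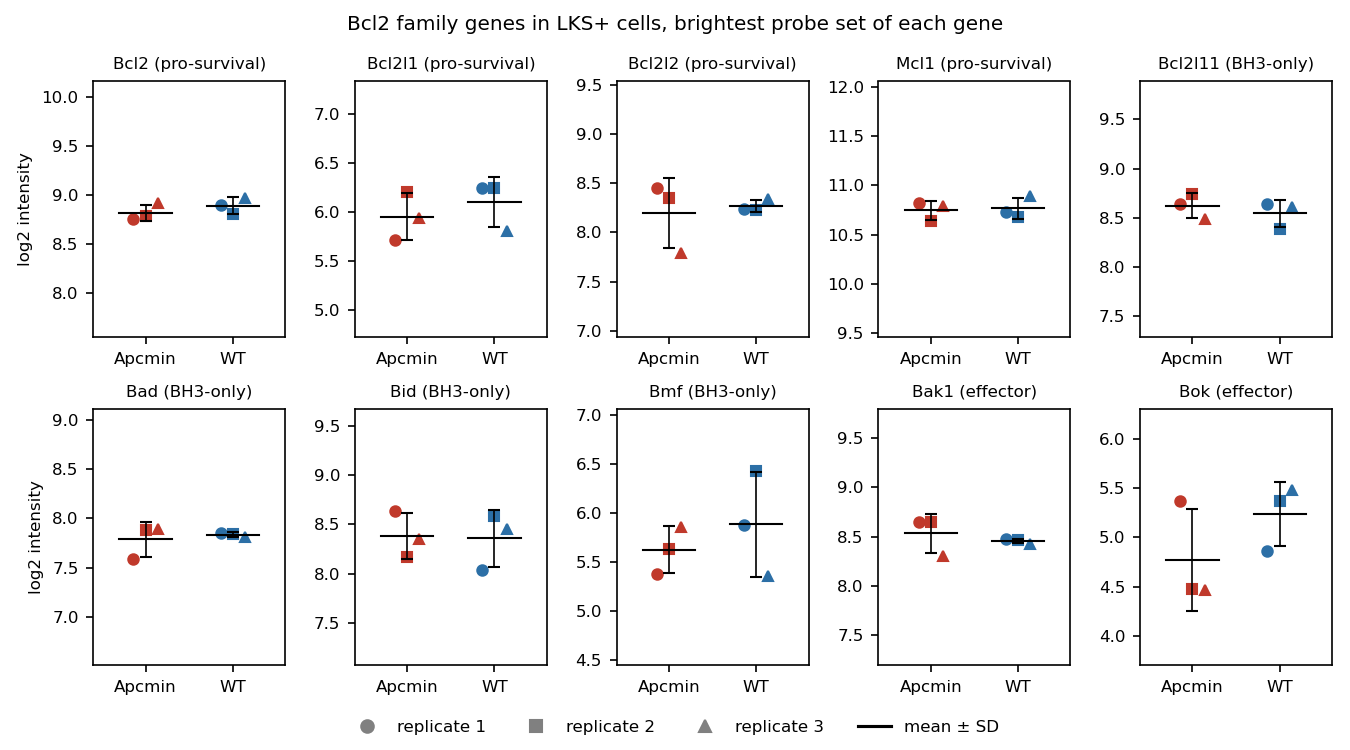
Log2 intensity of the brightest probe set of each of the 10 genes on the 3 Apcmin and 3 WT arrays, with the same span in each panel. Points are arrays, marked by replicate number, and bars show the mean ± SD. The groups overlap in every panel, and the widest difference of means is that of Bok, -0.47.

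The width of the intervals came from the spread between arrays, which limma moderates by that of all probe sets. Mcl1 1456243_x_at, for example, had a pooled SD of 0.02 and a standard error of 0.13. With a mean-variance trend the standard error of the brightest Mcl1 probe set was 0.08, in place of 0.14. The median pooled SD within a genotype was 0.19 over the 10 genes, beside 0.24 over all genes and 0.18 over the 8658 genes with a mean of at least 6. The median half-width of the 95% confidence interval of a difference was 0.42. It was narrowest for Bcl2 (0.33) and Mcl1 (0.34) and widest for Bok (0.71) and Bmf (0.68), the 2 genes whose brightest probe set had a mean under 6. The intervals of all 10 genes included 0. Of the 35 probe sets, 2 had an unadjusted p under 0.05, against 3.81% of all probe sets, and 0 passed after adjustment, against 0%.

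**Figure D3:**
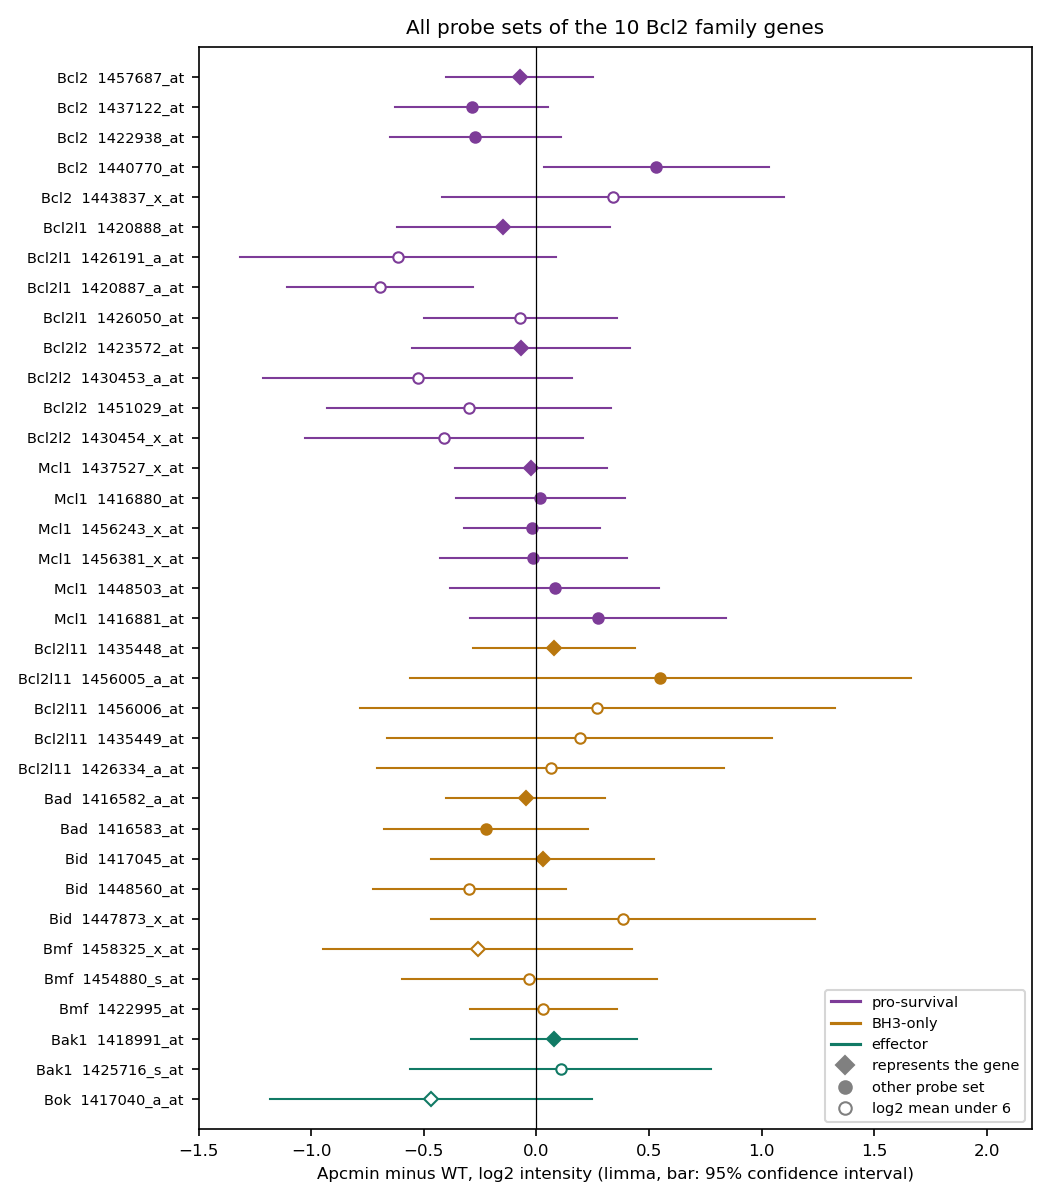
Apcmin minus WT difference in log2 intensity for each of the 35 probe sets, with its 95% confidence interval from limma. Diamonds are the probe sets that stand for their gene, open symbols have a mean under 6, and colours mark the role of the gene. The interval leaves out 0 for Bcl2l1 1420887_a_at (-1.11 to -0.28) and Bcl2 1440770_at (0.03 to 1.03), which lie on opposite sides.

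No array was the lowest on most of the family's probe sets. Apcmin replicate 3 was the lowest of the 6 on 9 of 35 (25.7%), and on 12.6% of all probe sets. WT replicate 2 was lowest on 8 (22.9%) and highest on 8, beside 14.9% and 20.4% of all probe sets. WT replicate 3 was lowest on 2 (5.7%) and highest on 8 (22.9%), beside 17.7% and 12.3% of all probe sets.

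The pro-survival genes were then set against the pro-death genes within each array. Each gene was taken as its log2 deviation from its own mean over the 6 arrays, since levels of different probe sets cannot be compared, and the mean of the pro-death genes was subtracted from that of the pro-survival genes. This balance was -0.07, 0.10 and 0.001 in Apcmin, against 0.11, -0.15 and 0.01 in WT. The groups overlapped across nearly the whole range. Its mean was 0.01 ± 0.09 in Apcmin and -0.01 ± 0.13 in WT (SD, n = 3 each), a difference of 0.02, smaller than either SD. The balance is given as a description with no test.

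Bmf and Bok, the dim genes, weighed on that value. With the 8 genes that had a mean of at least 6, the balance was -0.09, -0.02 and -0.05 in Apcmin, against 0.12, 0.02 and 0.02 in WT, a difference of -0.11. Every Apcmin value lay below every WT value there, and the SD was 0.04 in Apcmin and 0.06 in WT. Bcl2l1 is among the 8 genes with a mean of 6.03, just over the cut, and had the widest difference of them, -0.15. Whether the groups lie apart thus depends on the genes taken. The balance over 8 genes too is a description with no test. Of the 24 pairs of a pro-survival with a pro-death gene, the log ratio had a lower mean in Apcmin in 15 and a higher mean in 9. The pairs combine the same 10 genes, so these counts are not of separate observations. Of the 16 pairs without Bmf and Bok, the differences ran from -0.22 to 0.03, and over all 24 from -0.22 to 0.45. Some pairs of binding partners were picked after the values were seen. The log2 ratio of Mcl1 to Bak1 differed by -0.10 and that of Bcl2 to Bcl2l11 by -0.15. Within-group SDs were 0.25 in Apcmin and 0.13 in WT for the first, and 0.20 in Apcmin and 0.08 in WT for the second. The ratios of Bcl2 and of Mcl1 to the dim Bmf went the other way, by 0.19 and 0.24.

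**Figure D4:**
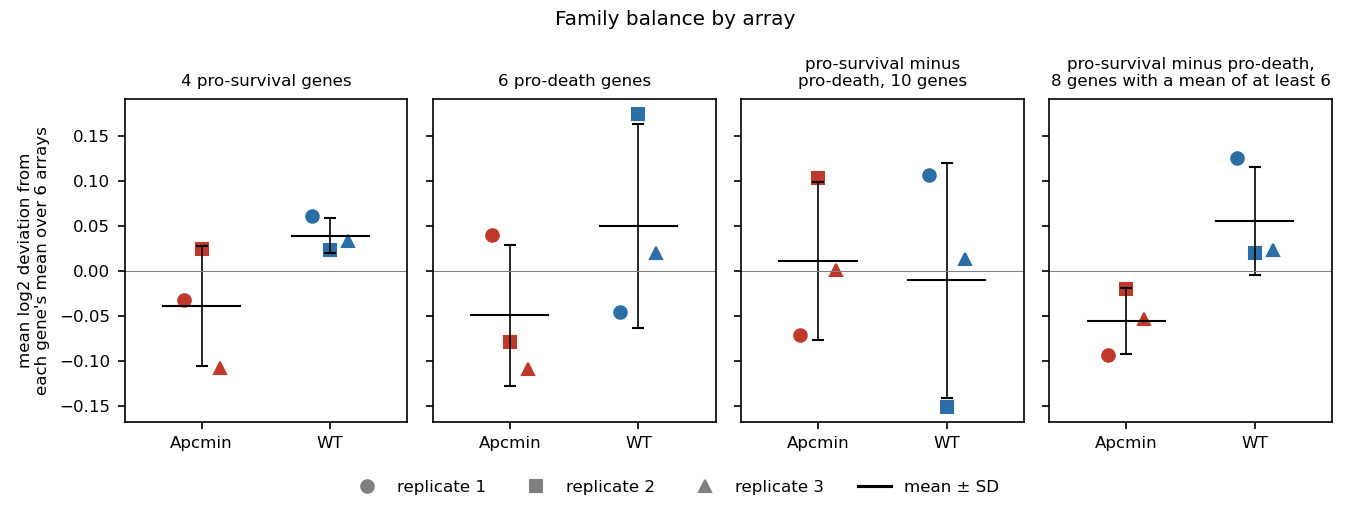
Mean log2 deviation from each gene's own mean over the 6 arrays, for the 4 pro-survival genes, the 6 pro-death genes, their difference over all 10 genes and their difference over the 8 genes with a mean of at least 6. Points are arrays, marked by replicate number, and bars show the mean ± SD. The balance over 10 genes overlaps between Apcmin and WT (difference 0.02), and over 8 genes it is lower in Apcmin (difference -0.11).

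Further genes of the pathway were taken from 4 lists. Among relatives of the family, 12 of 18 had a probe set with a single symbol, and Bax, the other main effector, did not. Of the 12, 0 passed, 4 were on average higher and 8 lower in Apcmin, and the median difference was -0.04, beside -0.04 over all genes. It was 0.07 over the relatives with a mean of at least 6 and 0.02 without WT replicate 2. Bbc3, which encodes the p53-induced BH3-only protein Puma, was at 4.47, 4.28 and 4.11 in Apcmin, against 4.31, 4.39 and 4.32 in WT. Bnip2 differed by 0.11, Bcl2l12 by 0.16, Bnip3, a BH3-like protein of hypoxia and mitophagy, by -0.03 and Bfar by -0.04. Among the other probe sets, 3 of 7 shared the sign for Bnip2, 1 of 1 for Bcl2l12 and 1 of 2 for Bfar.

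The apoptosome and the executioner caspases act after the membrane opens, while caspase-8 acts before it. Of 20 genes of the apoptosome and the caspases, 18 were measured, all with a mean of at least 6. None passed, 12 were on average higher and 6 lower in Apcmin, and the median difference was 0.06, beside 0.02 over all genes with a mean of at least 6. Diablo, a mitochondrial protein that blocks inhibitors of apoptosis, differed by 0.15, and Endog, a mitochondrial nuclease, by 0.14. Aifm1, apoptosis-inducing factor, differed by -0.11, and Dffa, the inhibitor of the caspase-activated nuclease, by -0.19. The other Dffa probe set did not share that sign, while those of Diablo and Endog shared theirs. Apaf1, the scaffold of the apoptosome, was at 9.16, 9.30 and 9.18 in Apcmin, against 9.25, 9.27 and 9.25 in WT.

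In the death receptor pathway 11 of 12 genes were measured, 0 passed, and 4 were on average higher and 7 lower in Apcmin, at a median difference of -0.04. That median was 0.07 without WT replicate 2 and 0.03 with averaged probe sets. Tnfsf10, the death ligand Trail, was at 9.06, 8.63 and 8.79 in Apcmin, against 8.43, 8.29 and 8.95 in WT, a difference of 0.27. Of its 2 other probe sets, 1 shared that sign. The necroptosis kinase gene Ripk3 differed by 0.14, Tnfrsf1a, a receptor of tumour necrosis factor, by -0.15 and its adaptor Traf2 by -0.12.

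Regulators and partners of the family's proteins included kinases, ubiquitin ligases and transcription factors. Of 32, 29 were measured, 0 passed, and 20 were on average higher and 9 lower in Apcmin, at a median difference of 0.02. It was 0.07 without WT replicate 3 and 0.06 with array weights. Pim2, a survival kinase that phosphorylates Bad, was at 7.56, 7.57 and 7.96 in Apcmin, against 6.86, 6.93 and 7.61 in WT. WT replicate 3 lay above 2 of the Apcmin arrays, and the difference of 0.56 had a standard error of 0.24 (limma, unadjusted p = 0.0566 and adjusted p = 0.954). Fbxw7, a ubiquitin ligase subunit that targets Mcl1, was at 8.92, 9.18 and 8.98 in Apcmin, against 8.63, 8.89 and 8.87 in WT. Fbxw7, Akt1 and E2f1 were the 3 regulators whose Apcmin values all lay above the WT values, of 29, against 2.97% of all genes. Of the 29, 27 had a mean of at least 6, and 360 of all 8658 such genes lay apart in this way. Among the other probe sets, 1 of 1 for Fbxw7, 1 of 3 for Akt1 and 1 of 2 for E2f1 also had a higher mean in Apcmin. Mdm2, the inhibitor of p53, differed by -0.09 and Ddit3, a stress factor that raises Bcl2l11, by -0.19. Of the 2 other Mdm2 probe sets 1 shared that sign, and the other Ddit3 probe set did not. In none of the 4 lists did a gene pass over all probe sets, 0 had an unadjusted p under 0.05, and the smallest adjusted p in each list was 0.954.

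**Figure D5:**
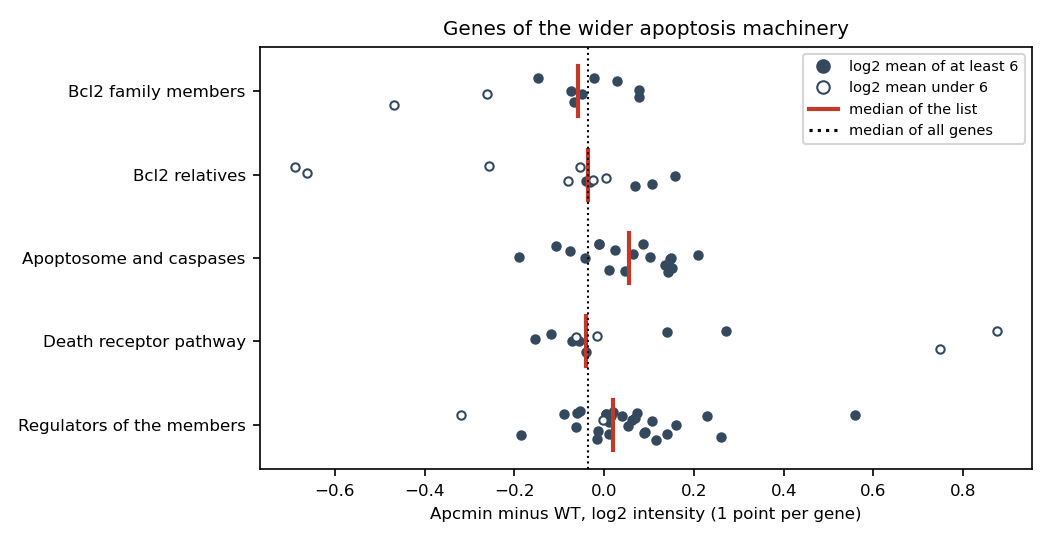
Apcmin minus WT difference in log2 intensity for the 10 family genes and the measured genes of 4 further lists, 1 point per gene, with vertical jitter for legibility. Open points have a mean under 6, red bars are the medians of the lists and the dotted line is the median of all genes, -0.04. The list medians lie between -0.06 and 0.06.

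Across the 6 arrays the genes most like Bcl2l1, the family gene with the widest difference among those with a mean of at least 6, were Ptov1 (Pearson r = 0.988), U2af1 (0.980) and Ndufs8 (0.978), of 8657 genes ranked. These values describe 6 arrays that share their RNA amplification and normalization.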

How the data were processed

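The values are normalized intensities that the authors deposited, linear and 1 for each probe set on each array. Per the submitters' processing notes RMA was used, with no version or background step stated there. From these values log2 was taken with no pseudocount. Of 45101 probe sets 64 controls were left out. Exactly 1 symbol was listed for 34945 probe sets, in an array annotation that can be old, and 34741 of these matched a RefSeq table of GRCm38.p6 by Entrez identifier. The 6 columns matched the 6 samples.

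Genotypes were compared by limma 3.58.1 (R 4.3.3, lmFit then eBayes on genotype alone, two-sided), with Benjamini-Hochberg adjustment over 45037 probe sets. The step was run on simulated data with independent noise and large added changes, which cannot show whether differences as small as those here would be seen. A fold change is 2 to the power of the log2 difference. The values carry no detection call, so differences of dim probe sets can hold background, and the number of arrays limits the precision. With 3 arrays against 3 an exact permutation test cannot go below p = 0.1, and none is given. Members and lists were chosen with earlier results of these data known. Named list genes are the 2 with the smallest p in each direction with a mean of at least 6 in the higher group; Bbc3, Apaf1, Foxo3, Akt1 and E2f1, the pairs of partners and the single probe sets were chosen after their values were seen.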

Additional observations from a re-analysis of the deposited data

How the results depend on the processing

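The comparison was repeated under 11 other settings (quantile normalization, centring on the median, a pseudocount of 16, a floor at 4, filters at the median and at 6, averaging over a gene's probe sets, a mean-variance trend, array weights, the mean of 3 Y-linked genes as a covariate, and the replicate number as a block) and without each of the 6 arrays. In limma no family gene, family probe set or list gene passed in any of them, nor did any other probe set. The family balance, 0.02, was -0.11 with the filter at 6 and -0.097 with averaged probe sets, and ranged from -0.049 to 0.080 with 1 array left out. With averaged probe sets Bcl2 differed by 0.047 and Mcl1 by 0.053, against their signs in the report, while Bcl2l1 differed by -0.38, Bcl2l2 by -0.33, Bcl2l11 by 0.23 and Bad by -0.14, each farther from 0 than there. With array weights Mcl1 differed by 0.0082 and Bid by -0.033, each against its sign in the report. The median of the death receptor list, -0.041, was 0.066 without WT replicate 2 and 0.032 with averaged probe sets, that of the regulators, 0.019, was 0.069 without WT replicate 3 and 0.064 with array weights, and that of the relatives, -0.036, was 0.069 with the filter at 6 and 0.022 without WT replicate 2. Leaving out single arrays turned the sign of Bcl2l2 (-0.20 to 0.14), Mcl1 (-0.064 to 0.039), Bcl2l11 (-0.0018 to 0.14), its probe set 1456005_a_at (-0.022 to 0.94), Bad (-0.10 to 0.052), Bid (-0.13 to 0.14) and Bmf (-0.53 to 0.0068); the cause was not tested. Probe sets at an unadjusted p under 0.05 numbered 1714 in the report's fit, 5864 without WT replicate 3, 2717 with array weights, 911 with the floor, 757 and 486 with the filters and 695 genes with averaged probe sets. Same-numbered arrays of the 2 genotypes showed no common deviation (correlations 0.083, -0.060 and -0.261, beside -0.171 to 0.223 for differently numbered arrays). With so few arrays these values cannot decide whether the numbers pair them. With the replicate block 0 family genes and 0 family probe sets passed, and the balance was 0.02. Dim probe sets limit what can be said of Bok and Bmf.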
